A study of Mus musculus with 18 samples.

Results

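Interferon-stimulated genes were followed through 6 groups of infarcted mouse hearts, with 3 libraries in each group. A list of 39 gene symbols was looked up in the deposited tables, and 37 of these genes had a row among the 18414 genes measured. Mx1 and Mx2 were not analysed here. Every mouse had a myocardial infarction, and no infarct-free group is among the samples. Mice of PBS_D3 received PBS (buffer) on day 3 after infarction and mice of aNMP-2a_D3 received the nanomedicine aNMP-2a on that day, with heart tissue taken on day 4. All aNMP-2a+PBS_D7 and aNMP-2a+2b_D7 mice received aNMP-2a on day 3, followed on day 7 by PBS in the first group and by aNMP-2b in the second, with tissue on day 8. The last pair of groups had aNMP-2a on day 3 and aNMP-2b on day 7. Their day 14 injection was PBS in aNMP-2a+2b+PBS_D14 or aNMP-2c in aNMP-2a+2b+2c_D14, and their tissue came from day 15. The PBS groups of days 8 and 15 are therefore not untreated hearts, and each tissue day has its own pair of groups. Strain, sex and age are not given in the labels, and nothing says whether the 3 libraries of a group came from separate animals.

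Interferons are secreted alarm signals. Type I interferons bind the receptor pair Ifnar1 and Ifnar2, the kinases Jak1 and Tyk2 then act on signal carriers such as Stat2, and a complex that holds Stat2 and Irf9 binds interferon-stimulated response elements (ISRE) in promoters, while interferon gamma works through GAS elements. The induced genes encode sensors of foreign nucleic acid, enzymes that destroy RNA or halt translation, the ubiquitin-like modifier Isg15, and brakes on the pathway. In mouse infarcts, nucleic acid of dying cells taken up by macrophages is known to start a type I interferon response, and monocytes, macrophages and neutrophils are among the cells that carry it.

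The promoter windows below are shown because the letters of the ISRE recur in them, often as a pair. RefSeq windows of 300 bases (250 before the gene start and 50 from it, build GRCm38.p6) were matched by symbol to 28 of the 37 genes. The ISRE was searched as GAAA, any 2 bases and GAAA again, and the GAS element as TTCNNNGAA, each on both strands, and matches may overlap each other. The 3 leading genes of their role classes that had a match are printed first, then Ifit3b and Oas1g, which are printed for comparison. All are written 5′ to 3′ on the strand of the gene, in lower case with the ISRE matches in capitals.
Ifit3 (chr19:34583279-34583578, + strand): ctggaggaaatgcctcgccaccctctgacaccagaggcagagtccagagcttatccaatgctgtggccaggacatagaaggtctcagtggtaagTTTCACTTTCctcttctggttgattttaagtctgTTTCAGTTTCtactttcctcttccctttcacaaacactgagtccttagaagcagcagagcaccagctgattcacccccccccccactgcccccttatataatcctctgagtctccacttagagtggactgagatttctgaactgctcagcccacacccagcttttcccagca
Isg15 (chr4:156200769-156201068, - strand): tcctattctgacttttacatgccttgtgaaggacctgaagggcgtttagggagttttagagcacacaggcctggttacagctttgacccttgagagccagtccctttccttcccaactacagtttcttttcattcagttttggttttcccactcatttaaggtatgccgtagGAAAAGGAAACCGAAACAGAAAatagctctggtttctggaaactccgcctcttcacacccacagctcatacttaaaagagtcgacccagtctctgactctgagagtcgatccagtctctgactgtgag
Ifitm3 (chr7:141010695-141010994, - strand): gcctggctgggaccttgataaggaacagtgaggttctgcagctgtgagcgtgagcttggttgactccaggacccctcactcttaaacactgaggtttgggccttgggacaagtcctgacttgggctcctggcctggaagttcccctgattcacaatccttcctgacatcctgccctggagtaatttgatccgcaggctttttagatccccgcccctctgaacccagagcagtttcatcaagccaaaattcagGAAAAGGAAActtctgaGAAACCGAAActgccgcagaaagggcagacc
Ifit3b (chr19:34607707-34608006, + strand): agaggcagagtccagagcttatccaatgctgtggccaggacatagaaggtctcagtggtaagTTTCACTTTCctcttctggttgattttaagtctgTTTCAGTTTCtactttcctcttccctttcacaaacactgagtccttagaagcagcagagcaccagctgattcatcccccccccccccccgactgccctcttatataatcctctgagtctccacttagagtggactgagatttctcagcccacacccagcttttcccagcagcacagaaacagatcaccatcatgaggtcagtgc
Oas1g (chr5:120887564-120887863, - strand): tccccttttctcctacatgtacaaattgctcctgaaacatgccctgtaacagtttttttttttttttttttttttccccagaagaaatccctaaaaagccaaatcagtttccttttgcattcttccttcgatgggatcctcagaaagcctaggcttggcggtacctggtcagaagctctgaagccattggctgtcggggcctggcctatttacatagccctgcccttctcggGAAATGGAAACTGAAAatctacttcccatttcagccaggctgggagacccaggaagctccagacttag
Ifit3 and its near copy Ifit3b carried the same pair of matches, TTTCACTTTC and TTTCAGTTTC, and so did the window of Ifit1. Counting 1 as the first transcribed base and −1 as the base before it, the Ifit3 matches began at −156 and −122. Those of Ifit3b began at −188 and −154. Isg15 held 3 overlapping matches that began at −78, −72 and −66. In Ifitm3 the matches began at 3 and 20, after the gene start, and the second overlapped the GAS match TTCTGAGAA that began at 14. Oas1g held overlapping matches that began at −18 and −12, and Oas1a, its near copy, had the same pair of 10-base runs.

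An ISRE match was present in the windows of 14 of the 28 genes (50%), and 8 of these had at least 2 matches. Among all 14393 genes of the tables that had a window, 3.83% held one. GAS matches were found in 6 of the 28 genes (21.4%), against 8.52% of the same 14393 genes. The other genes with an ISRE match were Ifit1, Oas1a, Oas3, Bst2, Eif2ak2, Rsad2, Trim30a, Ddx58 and Ifih1. A match is a run of letters and was not tested for binding, and a window without one says nothing of the factor. Log2 fold changes of the aNMP-2b comparison, described below, had a median of 1.56 for the 14 genes with an ISRE match, 1.42 for the 14 without one and 1.55 for the 9 genes with no window. These medians are a description and their differences were not tested.

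**Figure D1:**
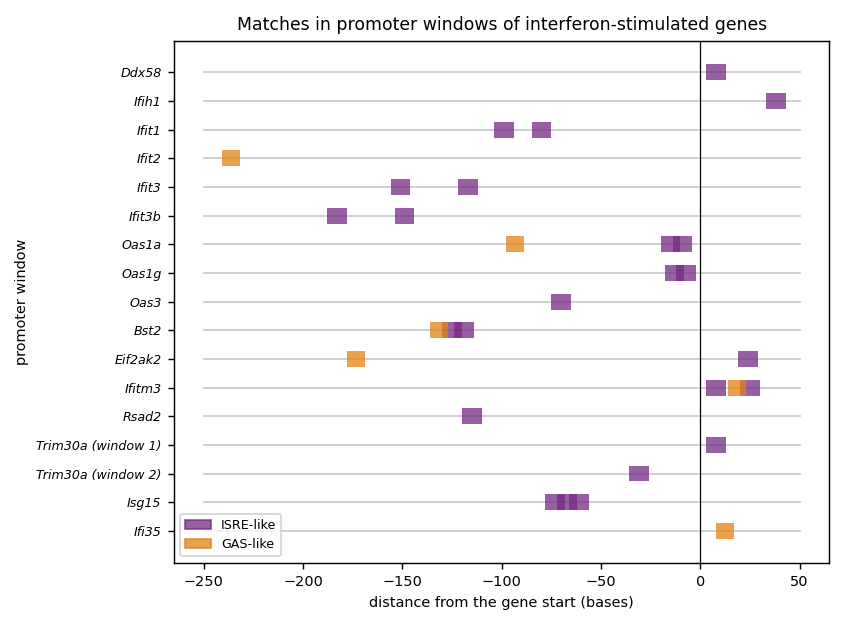
Matches to the ISRE and GAS letters in promoter windows, by distance in bases from the gene start (x axis), for windows that hold at least 1 match; Trim30a has 2 such windows. Purple boxes are ISRE-like and orange boxes GAS-like runs, and the pairs in Ifit1, Ifit3 and Ifit3b lie before the start while those of Ifitm3 lie after it.

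Values are FPKM (fragments scaled by gene length and library), and read depth is unknown because counts are not in the tables. FPKM summed to between 704356 and 814452 in a library, and between 12181 and 12821 genes reached 1 FPKM. Heart muscle genes were abundant in all 18 libraries (5 genes, sums of 15686 to 32134 FPKM). The atrial gene Myl7 was at 50 FPKM or more in 8 libraries spread over every group except PBS_D3, so libraries differ in the piece of heart they hold. Sums of fat cell, mesothelial and killer cell genes also differed between groups, and values that bear on a result are given beside it. In such bulk tissue, fewer cells of a type and less RNA per cell cannot be told apart.

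Levels differed widely among the 37 genes. Ifitm3, whose product blocks the entry of viruses into cells, and Ifi27l2a, which encodes a small mitochondrial protein, were the most abundant, with means over 18 libraries of 1033 and 983 FPKM. Bst2 (tetherin, which holds budding viruses at the cell surface) was at 243 FPKM and Lgals3bp, a secreted glycoprotein, at 173 FPKM. Oas3 was the lowest at 3.19 FPKM, and Ifi27 followed Lgals3bp at 149.8 FPKM. The order of the groups was similar for most genes. The lowest group mean belonged to aNMP-2a+PBS_D7 for 32 genes and to aNMP-2a+2b+PBS_D14 for the other 5. The highest belonged to aNMP-2a+2b_D7 for 34 genes, to aNMP-2a+2b+2c_D14 for 2 and to aNMP-2a_D3 for 1.

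**Figure D2:**
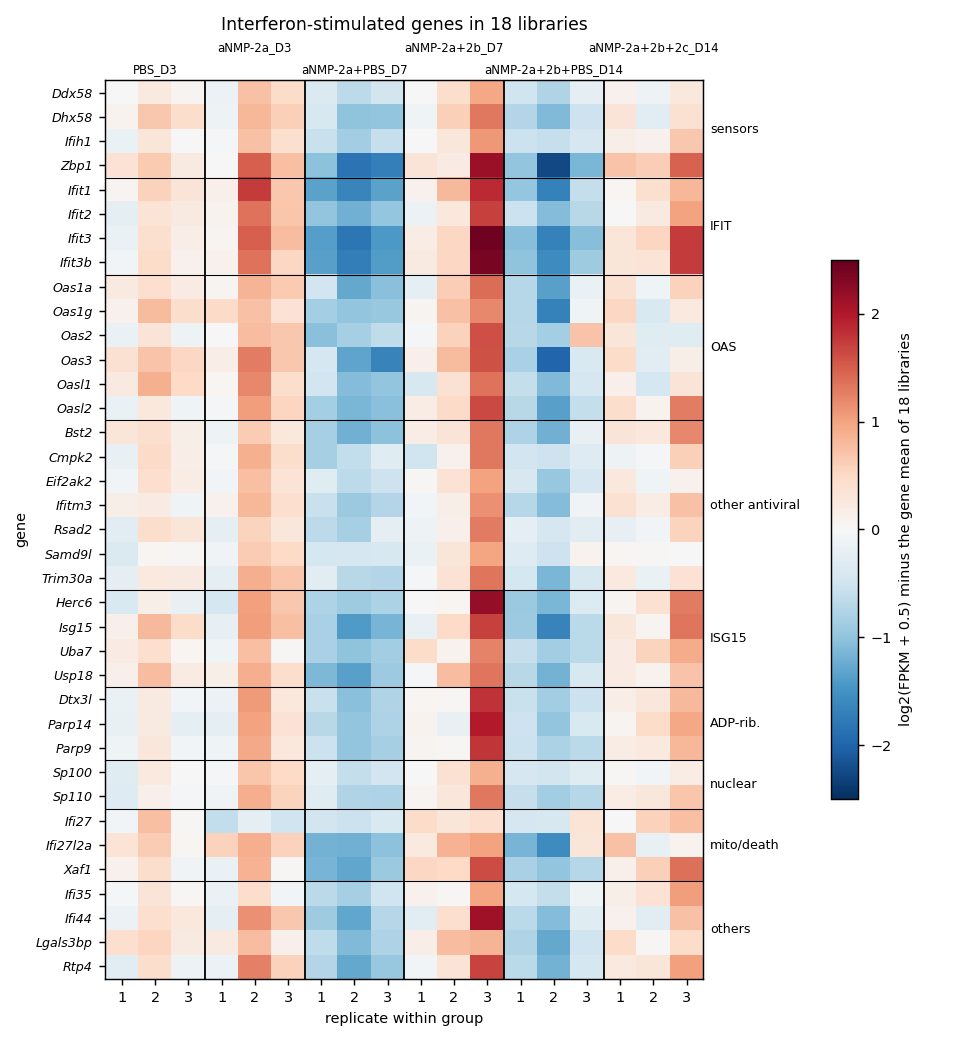
Each row is a gene, ordered by role, and each column a library, grouped in the order of tissue days 4, 8 and 15; colour gives log2(FPKM + 0.5) minus the mean of the gene over 18 libraries. The 6 libraries of the PBS groups of days 8 and 15 are blue for most genes, and aNMP-2a+2b_D7 replicate 3 is the darkest red column.

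The first comparison asks what aNMP-2a changed 1 day after its injection. No interferon-stimulated gene passed the test. Across 12512 genes tested with limma, 1.41% were called up and 0.432% down at an adjusted p under 0.05, so this comparison did make calls elsewhere. Values of 32 of the 37 genes were positive and 5 negative, with a median log2 fold change of 0.33 against 0.03 over all genes. Log2 fold changes here and below are differences in log2(FPKM + 0.5), which understates changes of low genes. The PBS_D3 and aNMP-2a_D3 libraries overlapped for 36 of the 37 genes. At an unadjusted p under 0.05, 0 of them were higher and 1 was lower, against 10.5% and 6.28% of all genes, and 14.4% of all genes were higher without overlap.

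Ifit3, an RNA-binding protein of the IFIT family that hinders the translation of viral RNA, had the largest positive value. It was at 63.3, 93.0 and 79.9 FPKM in PBS_D3 and at 74.2, 199 and 121 FPKM in aNMP-2a_D3 (log2 fold change 0.64, SE 0.38, adjusted p = 0.449 by limma). Replicates 2 and 3 of aNMP-2a_D3 thus lay above every PBS_D3 library, and replicate 1 lay among them. The related Ifit2 was at 19.7, 29.9 and 27.3 FPKM in PBS_D3 and at 24.8, 61.0 and 38.2 FPKM in aNMP-2a_D3 (0.60, SE 0.35). Herc6, the ligase that attaches Isg15 in mice, was at 4.48, 6.70 and 5.24 FPKM against 4.29, 12.7 and 9.91 FPKM (0.56, SE 0.39). In all 3 genes replicate 2 of aNMP-2a_D3 was the highest library, and replicate 1 lay within the range of PBS_D3 or, for Herc6, just under it.

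Ifi27, a mitochondrial relative of Ifi27l2a, went the other way. It was at 136, 239.6 and 146 FPKM in PBS_D3 and at 92.6, 119.9 and 101 FPKM in aNMP-2a_D3. It was the single gene of the list whose groups did not overlap, where 8.5% of all genes were lower without overlap. Its log2 fold change was −0.69 (SE 0.22, unadjusted p = 0.0178, adjusted p = 0.2 by limma). The RefSeq span of Ifi27 lies inside that of Ifi27l2a, and since counting by strand is not stated, reads of these genes may not be separable. Other genes were level. Bst2 was at 265, 283 and 239 FPKM in PBS_D3 and at 197, 332 and 257 FPKM in aNMP-2a_D3 (−0.03, SE 0.18). Ifi35, a cytoplasmic interferon-induced protein, was at 43.4, 55.6 and 45.1 FPKM against 39.5, 60.3 and 42.5 FPKM (−0.04, SE 0.17), which is as close to level.

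The median of 0.33 rested on single libraries. Without aNMP-2a_D3 replicate 2 it was 0.05, without aNMP-2a_D3 replicate 1 it was 0.51, and without PBS_D3 replicate 1 it was 0.21. With the 2 libraries rich in Myl7 left out, aNMP-2a_D3 is represented by replicate 2 alone, the highest library of its group for all 37 genes, and Dtx3l, Ifit1 and Zbp1 were then called up (median 0.73), where 1.24% of all genes were.

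**Figure D3:**
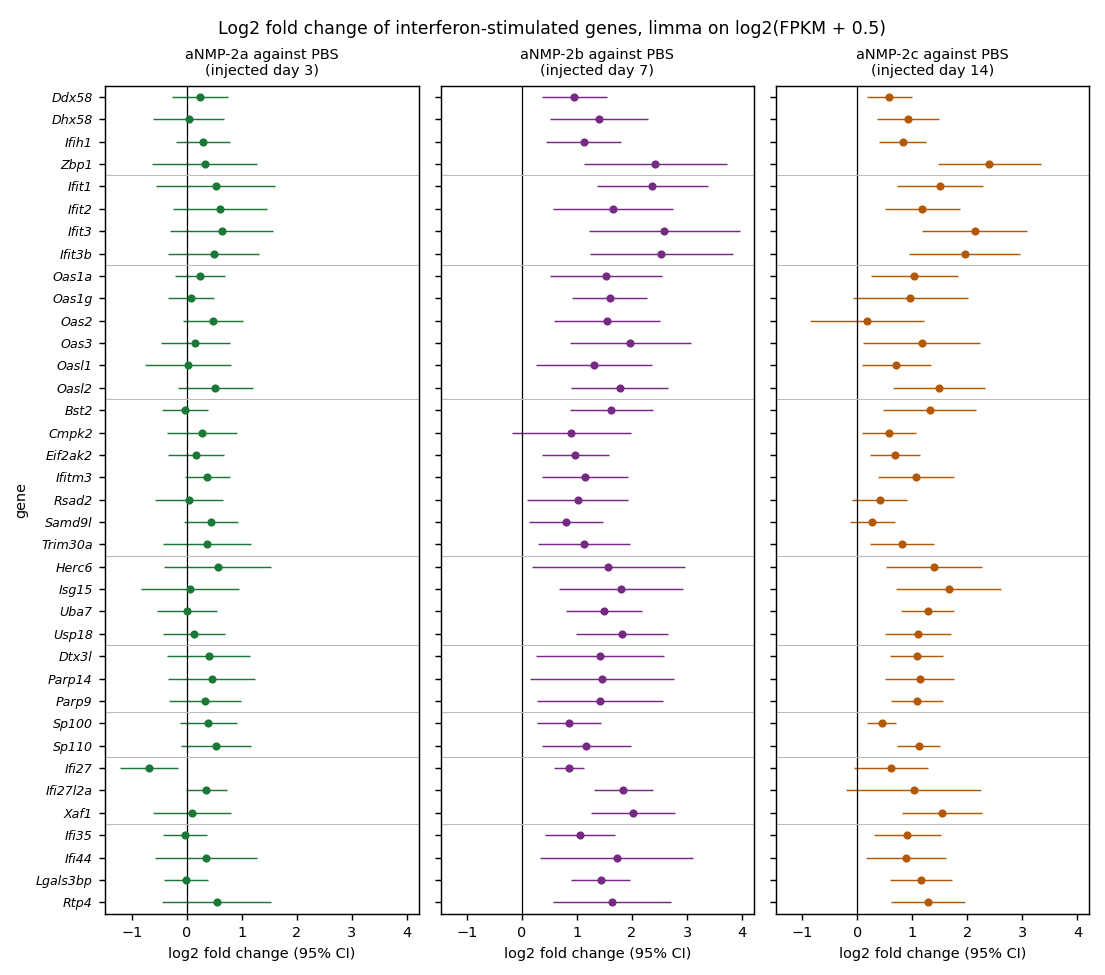
Log2 fold changes (x axis, points) with 95% confidence intervals from limma (lines) for each gene in the 3 treatment comparisons. Day 3 values surround a median of 0.33, while every value of the other panels lies to the right of 0.

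The second comparison asks what aNMP-2b added on day 7 in hearts that had already received aNMP-2a. Every one of the 37 genes had a positive value, from 0.80 (Samd9l) to 2.59 (Ifit3), with a median log2 fold change of 1.49 against −0.00 over 12711 genes. The 3 libraries of aNMP-2a+2b_D7 lay above the 3 of aNMP-2a+PBS_D7 for 36 of 37 genes, where 6.78% of all genes did so. At least a doubling was fitted for 31 genes, against 3.01% of all genes. No gene of the list passed the adjusted threshold. The test called 0.00787% of all genes up and 0% down, and the smallest adjusted p of the list was 0.104 (Ifi27l2a). At an unadjusted p under 0.05, 36 of the 37 genes were higher, against 5.72% of all genes.

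Among the sensors, Zbp1, which binds Z-form nucleic acid and can start necroptosis, had the largest value. It was at 18.1, 10.1 and 11.2 FPKM in the PBS group and at 47.0, 43.4 and 169 FPKM with aNMP-2b. The lowest aNMP-2a+2b_D7 library was above the highest control, and replicate 3 stood far above its mates (log2 fold change 2.42, SE 0.54, adjusted p = 0.35 by limma). Ddx58 (RIG-I), Ifih1 (MDA5) and Dhx58 (LGP2), the helicases that detect viral RNA, had group means of 9.55 and 19.6, 5.52 and 13.2, and 5.06 and 15.0 FPKM. Their log2 fold changes were 0.95, 1.12 and 1.39.

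The IFIT family had the highest median of the role classes, 2.45 over 4 genes. Ifit3 was at 26.8, 19.9 and 25.8 FPKM in the PBS group and at 80.3, 101 and 386 FPKM with aNMP-2b (2.59, SE 0.57, adjusted p = 0.344 by limma). Ifit3b was at 8.03, 6.12 and 7.79 FPKM in the PBS group and at 25.2, 30.8 and 112 FPKM with aNMP-2b (2.53, SE 0.54). Replicate 3 of aNMP-2a+2b_D7 was more than 3 times its mates in both, but each mate was also above every control. Of the 50-base runs in the transcript of Ifit3, 51.2% also occur in Ifit3b, so reads may be shared and the pair is not independent. Ifit1 went from 6.66 to 41.3 FPKM (2.37) and Ifit2 from 11.1 to 42.4 FPKM (1.66).

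OAS enzymes make oligoadenylates that switch on an RNA-degrading nuclease. All 6 OAS and OAS-like genes had groups that did not overlap, with log2 fold changes from 1.30 (Oasl1) to 1.97 (Oas3). Oasl2 was at 24.0, 19.5 and 21.0 FPKM in the PBS group and at 49.6, 61.4 and 137 FPKM with aNMP-2b (1.78, SE 0.37). Oas1g was at 2.97, 2.63 and 2.72 FPKM against 5.98, 9.80 and 13.8 FPKM (1.59, SE 0.28). The controls of these genes were close together and the treated libraries spread out. Oas1g shares 54.1% of its 50-base runs with Oas1a, whose group means were 13.2 and 42.0 FPKM.

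In the ISG15 system, Isg15 was at 46.1, 30.2 and 36.2 FPKM in the PBS group and at 71.5, 114 and 269 FPKM with aNMP-2b (1.80, SE 0.47). Its activating enzyme Uba7 (1.49), its ligase Herc6 (1.57) and Usp18 (1.82), which removes Isg15 from proteins and dampens the interferon receptor, had similar values. Thus the modifier and the 3 genes that handle it were all higher without overlap. Herc6 was at 3.28, 3.01 and 3.24 FPKM in the controls and at 5.98, 6.22 and 29.4 FPKM with aNMP-2b, so its mean of 13.9 FPKM was set by replicate 3.

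Other direct antiviral genes had smaller values, with a median of 1.01 over 7 genes. Ifitm3 was at 646, 497 and 571 FPKM in the PBS group and at 911, 1049 and 2084 FPKM with aNMP-2b (1.15, SE 0.33). Bst2 was at 121, 93.3 and 105 FPKM against 245, 267 and 536 FPKM (1.62, SE 0.31). These were apart, while Cmpk2, a mitochondrial nucleotide kinase, was the single gene of the list whose groups overlapped (8.60 and 18.8 FPKM, 0.90). Rsad2 (viperin, 1.01), the kinase gene Eif2ak2 (PKR, which halts translation, 0.96), Trim30a (1.13) and Samd9l (0.80) did not overlap.

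Parp9 and Dtx3l, which act as a complex, and the ADP-ribosyltransferase gene Parp14 had values of 1.42, 1.42 and 1.45. Parp9 was at 18.1, 13.2 and 14.7 FPKM in the PBS group and at 27.9, 27.1 and 93.4 FPKM with aNMP-2b. Replicates 1 and 2 with aNMP-2b were level and replicate 3 was far higher. Parp9 and Dtx3l overlap in the RefSeq annotation, so their reads may not be separable. Of the nuclear body genes, Sp100 was at 40.5, 31.0 and 33.8 FPKM against 47.0, 61.7 and 88.4 FPKM (0.86, SE 0.24), and Sp110 had a value of 1.17.

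Of the genes tied to mitochondria and cell death, Ifi27l2a was at 377, 373 and 419 FPKM in the PBS group and at 1014, 1562 and 1710.0 FPKM with aNMP-2b (1.84, SE 0.22, adjusted p = 0.104 by limma). Unlike the IFIT genes, replicates 2 and 3 with aNMP-2b were close. Ifi27 was at 104, 98.3 and 109 FPKM against 195, 176 and 191 FPKM (0.85, SE 0.11), and here replicate 3 did not stand out at all. Xaf1, which promotes cell death, went from 11.9 to 53.0 FPKM (2.01). Lgals3bp was at 101, 73.6 and 91.7 FPKM against 176, 268 and 283 FPKM (1.43, SE 0.22). Ifi44 (1.72), Ifi35 (1.05) and Rtp4 (1.64), which restricts some RNA viruses, were apart as well.

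**Figure D4:**
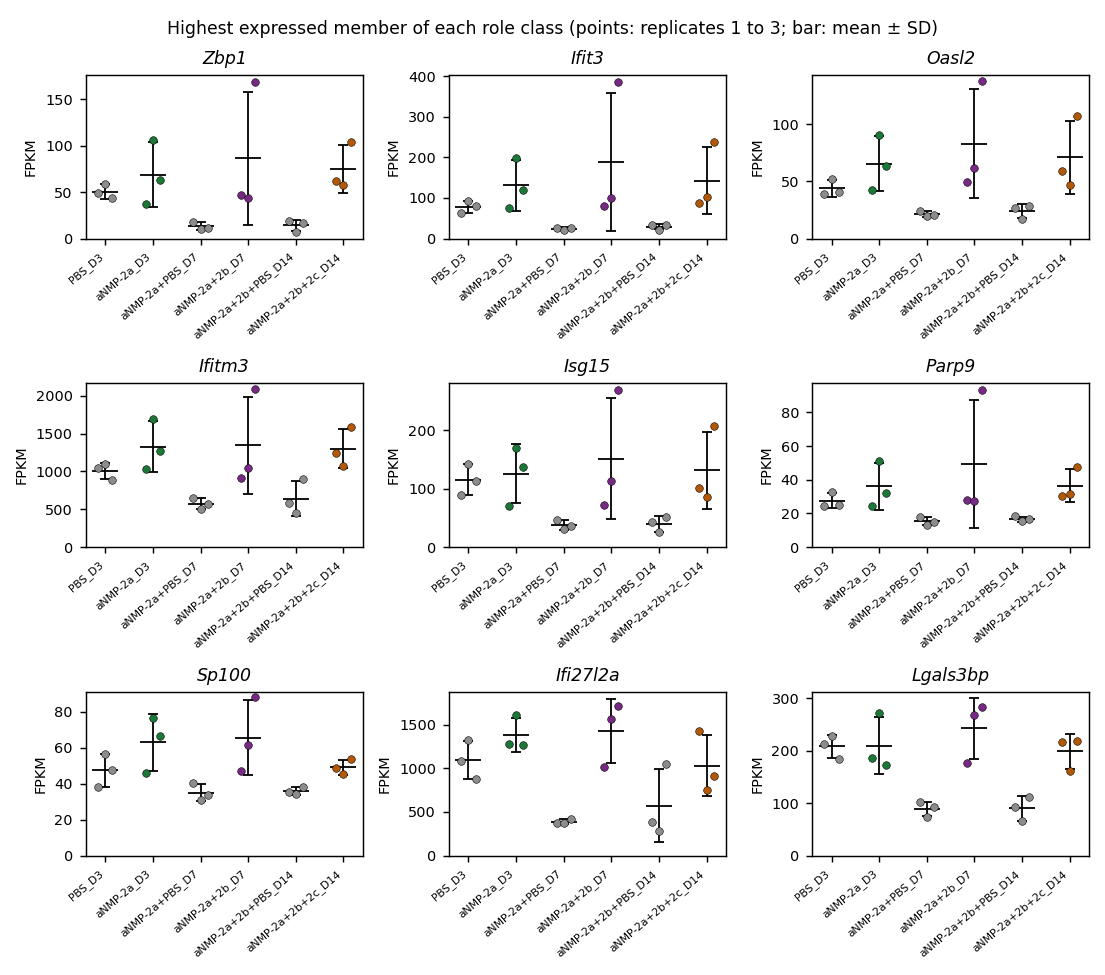
FPKM on linear axes for the most abundant gene of each role class in the 6 groups; points are libraries and bars give the mean ± SD of 3. The means of the PBS groups of days 8 and 15 are the lowest in all 9 panels, and the high aNMP-2a+2b_D7 point is replicate 3. In the Ifi27l2a panel, replicate 3 of aNMP-2a+2b+PBS_D14 (1053 FPKM) lies among the libraries of the other groups.

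White blood cell genes had higher values with aNMP-2b, and no gene of the leukocyte lists passed the test (smallest adjusted p = 0.0922 by limma, for a killer cell gene). Ptprc, which all leukocytes express, had control values of 20.4, 7.73 and 6.89 FPKM against 21.8, 24.8 and 20.2 FPKM with aNMP-2b (log2 fold change 1.06). Sums of 5 macrophage genes ranged from 104 to 244 FPKM in the control group and from 210.0 to 279 FPKM with aNMP-2b, and 0 of the 5 were at 0. Sums of 4 killer cell genes ranged from 6.13 to 13.9 against 30.5 to 33.4 FPKM. Sums of 3 recruited monocyte genes, mostly Plac8, ranged from 34.6 to 124 against 156 to 345 FPKM, with Plac8 and Ly6c2 apart. The third gene, Ccr2, overlapped, at 17.3, 6.65 and 4.52 FPKM against 16.25, 16.22 and 13.97 FPKM. For 4 neutrophil genes the sums ranged from 27.9 to 546 against 279 to 823 FPKM. T cell genes (5 genes) overlapped, with sums of 4.42 to 19.1 and 11.2 to 26.2 FPKM. Fat cell genes (3 genes) summed to between 13.6 and 42.0 FPKM in the controls and between 102 and 189 FPKM with aNMP-2b, and 3 mesothelial genes to between 25.6 and 88.9 against 138 and 152 FPKM. The heart muscle sum was 21460 to 29948 FPKM in the controls and 15686 to 23687 FPKM with aNMP-2b. None of the genes of these lists was at 0 in either group. Plasmacytoid dendritic cells, strong interferon producers, were near absent by their genes: apart from Cox6a2, which heart muscle also expresses, no gene of that list exceeded 0.63 FPKM in any library.

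One control library had leukocyte values unlike its mates. Replicate 1 of aNMP-2a+PBS_D7 had as much Ptprc as the aNMP-2b libraries, and its macrophage sum of 244 FPKM lay within their range, while its killer cell sum of 13.9 FPKM did not. Log2 differences between the mean of the aNMP-2a+2b_D7 libraries and replicate 1 ran from 0.64 to 2.425 over the 37 interferon-stimulated genes. Their median was 1.26, and against replicates 2 and 3 it was 1.64 and 1.47. The same differences were not computed over all genes. The monocyte sum of replicate 1, 124 FPKM, was below those of the aNMP-2b libraries. The part of killer cells, monocytes, neutrophils, mesothelium or fat in the difference was not tested. Without this replicate, Ifi27, Ifi27l2a and Lgals3bp passed the test (3 of 37 genes, where 0 passed with it), and 2.18% of all genes were called up. Without aNMP-2a+2b_D7 replicate 3 the median was 1.04.

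**Figure D5:**
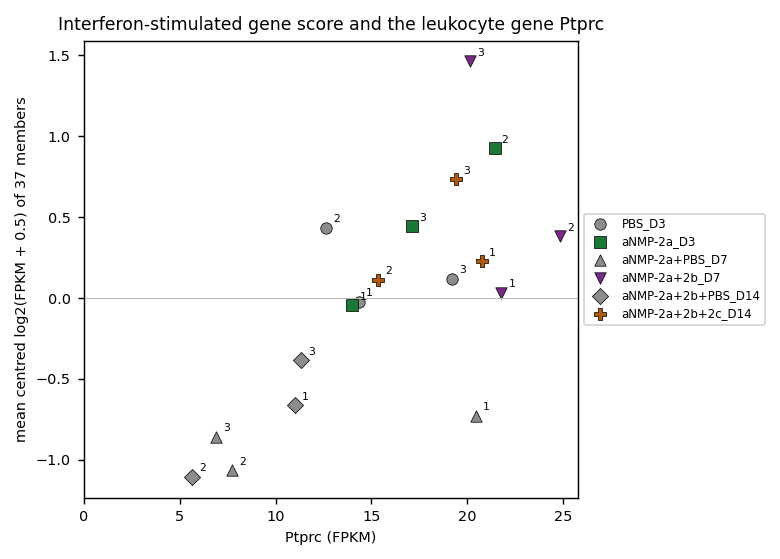
Each point is a library, placed by its Ptprc level in FPKM (x axis) and by the mean over 37 genes of log2(FPKM + 0.5) centred on 18 libraries (y axis); numbers are replicates. Replicate 1 of aNMP-2a+PBS_D7 has 20.4 FPKM of Ptprc and a mean of −0.73, below every aNMP-2a+2b_D7 library.

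The third comparison asks what aNMP-2c added on day 14 in hearts that had received aNMP-2a and aNMP-2b. All 37 values were again positive, from 0.17 (Oas2) to 2.40 (Zbp1), with a median log2 fold change of 1.08 against 0.02 over 12440 genes. Groups did not overlap for 31 genes, all higher with aNMP-2c, where 9.95% of all genes were higher without overlap. At least a doubling was fitted for 22 genes, against 2.21% of all genes. No gene passed the adjusted threshold, and none did among all genes (0% called in either direction by limma). At an unadjusted p under 0.05, 31 of the 37 genes were higher, against 6.16% of all genes, and the smallest adjusted p was 0.381.

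Zbp1 was at 18.8, 7.44 and 16.6 FPKM in the PBS group and at 62.1, 57.8 and 105 FPKM with aNMP-2c (2.40, SE 0.39, adjusted p = 0.381 by limma). Ifit3 was at 33.5, 21.7 and 33.4 FPKM against 87.8, 103 and 237 FPKM (2.14, SE 0.40). Ifit3b was at 10.4, 6.89 and 11.3 FPKM against 26.6, 27.1 and 73.1 FPKM (1.95, SE 0.42). In each of the 3 genes the lowest aNMP-2c library was more than 2 times the highest control. Isg15 was at 43.1, 25.3 and 51.1 FPKM against 100.3, 86.4 and 207 FPKM (1.66, SE 0.40), and Oasl2 at 26.9, 16.7 and 28.6 FPKM against 59.0, 46.5 and 107 FPKM (1.48, SE 0.35). Replicate 3 of aNMP-2a+2b+2c_D14 was the highest library of its group in these 5 genes.

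Some genes were less apart on day 15. Ifi27l2a was at 380.1, 287 and 1053 FPKM in the PBS group and at 1421, 752 and 909.7 FPKM with aNMP-2c (1.03, SE 0.51). Control replicate 3 lay above 2 of the 3 treated libraries. Oas2 showed the same control library on top, with 12.7, 11.4 and 34.7 FPKM against 25.8, 16.9 and 16.8 FPKM (0.17, SE 0.43). Ifi27 (106, 107 and 179.9 against 143, 213 and 240.0 FPKM), Oas1g, Oasl1 and Samd9l also overlapped. Ifitm3 did not, although control replicate 3 was its highest control (578, 445 and 896 against 1244, 1077 and 1585 FPKM, 1.07, SE 0.29).

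The remaining role leaders were apart. Lgals3bp was at 93.2, 65.0 and 112 FPKM against 216, 161 and 218 FPKM (1.16, SE 0.23). Parp9 was at 18.2, 15.2 and 16.4 FPKM against 30.1, 31.4 and 47.7 FPKM (1.08, SE 0.19). Sp100 was at 35.5, 34.2 and 38.4 FPKM against 48.5, 45.3 and 53.7 FPKM (0.44, SE 0.11), a small difference with narrow groups. Several leukocyte sums were higher with aNMP-2c too, and no gene of those lists passed the test (smallest adjusted p = 0.381 by limma). Ptprc ranged from 5.66 to 11.3 FPKM in the PBS group and from 15.4 to 20.8 FPKM with aNMP-2c. The macrophage sum ranged from 74.8 to 148 against 151 to 245 FPKM, and the monocyte sum from 19.9 to 71.7 against 137 to 253 FPKM. By single genes, 2 of 5 macrophage and 2 of 3 monocyte genes were apart, and the monocyte gene Ccr2 overlapped. The macrophage gene Adgre1 was at 51.8 FPKM in control replicate 3, above every aNMP-2c library. The killer cell sum ranged from 4.96 to 12.8 against 16.3 to 39.0 FPKM. Of its 4 genes, 2 were tested and were apart, while Ncr1 overlapped. The T cell sum ranged from 5.11 to 12.8 against 19.2 to 30.4 FPKM. Neutrophil sums overlapped (11.0 to 289 against 105 to 2691 FPKM), and so did B cell sums (4.28 to 7.38 against 1.22 to 35.1 FPKM). Fat cell sums were 20.9 to 124 FPKM in the PBS group and 124, 8.99 and 1.03 FPKM with aNMP-2c, and mesothelial sums 60.9 to 112 against 164, 4.63 and 0.89 FPKM. The part of these cells in the day 15 values was not tested.

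In the day 4 hearts these measures were closer. Ptprc ranged from 12.6 to 19.2 FPKM in PBS_D3 and from 14.0 to 21.4 FPKM in aNMP-2a_D3, and the monocyte sum from 173 to 215 against 80.2 to 249 FPKM. The macrophage sum was 194 to 233 FPKM in PBS_D3 and 253 to 277 FPKM in aNMP-2a_D3, without overlap, but only 2 of its 5 genes were apart. All 3 mesothelial genes were called up (smallest adjusted p = 0.0143 by limma), with sums of 3.59 to 11.3 against 46.6 to 56.9 FPKM. All 3 red cell genes were called up as well (smallest adjusted p = 0.0166 by limma), with sums of 3267 to 3723 against 5330.4 to 8106 FPKM. Of 4 genes each, 1 fibroblast gene was called up and 1 endothelial gene down. The part of these cells in the day 4 values was not tested.

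The difference between the treatment effects was tested in 1 fit of the 18 libraries (13116 genes). The aNMP-2b effect was larger than the aNMP-2a effect in value for all 37 genes (median difference 1.26 on the log2 scale, against −0.03 over all genes). No gene passed and 0% of all genes were called. At an unadjusted p under 0.05, 21 of 37 genes were higher (2.15% of all genes), and the smallest adjusted p was 0.431. Zbp1 had the largest difference (2.09, SE 0.71) and Samd9l the smallest (0.36, SE 0.35). Without aNMP-2a+2b_D7 replicate 3 the median difference was 0.78. The aNMP-2c effect differed from the aNMP-2b effect by a median of −0.35, with 1 gene, Oas2, lower at an unadjusted p under 0.05 (−1.38, SE 0.59, against 1.34% of all genes), and 0 genes passed. This median was 0.02 without aNMP-2a+2b_D7 replicate 3, and −0.64 without aNMP-2a+2b_D7 replicate 1. Against aNMP-2a, the aNMP-2c effect was larger in value for 35 of 37 genes (median 0.75, 9 genes at an unadjusted p under 0.05, 2.85% of all genes, smallest adjusted p = 0.944 by limma).

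The comparisons between tissue days run from a group last given nanomedicine to one last given PBS. Tissue day and last injection cannot be told apart in them. Comparing aNMP-2a+PBS_D7 with aNMP-2a_D3 follows hearts given aNMP-2a from day 4 to day 8, when a PBS injection had been added. It shares its libraries with the comparisons above, so it is no separate evidence. Ifi27l2a fell from 1275, 1608 and 1271 FPKM to 377, 373 and 419 FPKM (log2 fold change −1.82, SE 0.13, adjusted p = 0.0362 by limma). Oas1g fell from 8.20, 9.83 and 7.44 FPKM to 2.97, 2.63 and 2.72 FPKM (−1.45, SE 0.13, adjusted p = 0.0362 by limma). These 2 of 37 genes passed, where 0.0318% of all 12585 genes were called down, and the groups of both were widely separated.

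Over the list, 36 of 37 genes were lower on day 8 without overlap, where 7.32% of all genes were, and 36 were lower at an unadjusted p under 0.05, against 5.54%. The test called 0.00795% of all genes up and none of the list. The median log2 fold change was −1.24 against −0.01 over all genes, and Ifit3 had the lowest value, −2.32 (131 to 24.1 FPKM, SE 0.35, adjusted p = 0.117 by limma). Ifi27 was the exception, with means of 104 and 104 FPKM. The 2 calls depended on the libraries. Leaving out aNMP-2a+PBS_D7 replicate 1 gave 8 calls, with 3.25% of all genes called down, and leaving out aNMP-2a_D3 replicate 2 or 3 or aNMP-2a+PBS_D7 replicate 2 or 3 gave 0. Ptprc ranged from 14.0 to 21.4 FPKM on day 4 and from 6.89 to 20.4 FPKM on day 8. The macrophage sum was 253 to 277 FPKM on day 4 and 104 to 244 FPKM on day 8. All 5 macrophage genes had negative values (median −0.98), 1 of them without overlap, and 0 were called. Fat cell and B cell genes (3 each) were higher on day 8 without overlap. The part of these cells in the difference was not tested.

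From aNMP-2a+2b_D7 to aNMP-2a+2b+PBS_D14 the same direction was seen in value, with 37 negative values and a median of −1.33, against −0.07 over 12607 genes. No gene of the list passed and 0.0159% of all genes were called down. The groups did not overlap for 31 genes, against 16.9% of all genes, so the background of lower genes was high here. Among the markers, 3 of 3 monocyte, 4 of 4 killer cell, 3 of 3 B cell and 3 of 5 macrophage genes and Ptprc (log2 fold change −1.27) were lower without overlap, with none called. Heart muscle genes had a median of 0.72, with 2 of 5 higher without overlap. The part of these cells in the difference was not tested. At an unadjusted p under 0.05, 32 of 37 were lower (13.2% of all genes), and the smallest adjusted p was 0.177. Without aNMP-2a+2b_D7 replicate 3 the median was −0.84. Read along the course, Ifit3 had group means of 78.7 ± 14.9 FPKM in PBS_D3, 131 ± 63.2 in aNMP-2a_D3, 24.1 ± 3.76 in aNMP-2a+PBS_D7, 189 ± 171 in aNMP-2a+2b_D7, 29.6 ± 6.80 in aNMP-2a+2b+PBS_D14 and 143 ± 82.4 in aNMP-2a+2b+2c_D14 (mean ± SD, n = 3). In a split chosen after the values were seen, all 6 libraries of the day 8 and day 15 PBS groups lay below all 12 other libraries for 23 of the 37 genes, as for 0.709% of 13116 genes. PBS_D3 was not among the low groups.

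Within groups most genes of the list moved as a block, which the coefficients of the next paragraph describe. The single libraries named here were picked after their values were seen. No share over all genes was counted for such ranks and ratios of libraries. In aNMP-2a+2b_D7, replicate 3 was above both mates for 36 of 37 genes and was the highest of all 18 libraries for 35. Its ratio to the mean of its mates had a median of 2.26 and ran from 1.03 to 4.81. Replicate 2 of aNMP-2a_D3 was above both mates for 37 of 37 genes (median ratio 1.56), replicate 2 of PBS_D3 was above its mates for 37, and replicate 3 of aNMP-2a+2b+2c_D14 for 31 (median ratio 1.49). In aNMP-2a+2b_D7, replicate 3 had the lowest Ptprc and macrophage sum of its group and the highest monocyte sum (156, 199 and 345 FPKM in replicates 1 to 3). That monocyte sum was mostly Plac8 (107, 140 and 287 FPKM). Ly6c2 was at 32.4, 43.6 and 44.2 FPKM, and Ccr2 was lowest in replicate 3 (16.25, 16.22 and 13.97 FPKM). In aNMP-2a_D3, replicate 2 had the highest Ptprc, monocyte sum (80.2, 249 and 149 FPKM) and killer cell sum (10.4, 20.6 and 5.12 FPKM). Replicate 3 of aNMP-2a+2b_D7 was also free of atrial signal, with Myl7 at 1.08 FPKM against 2097 and 382 FPKM in its mates. So were replicate 2 of aNMP-2a_D3 (2.56 FPKM) and replicate 3 of aNMP-2a+2b+2c_D14 (2.07 FPKM). Other libraries did not follow this. Replicate 1 of aNMP-2a+2b+2c_D14 was as free (2.97 FPKM) and was the highest of its group for 6 genes. Replicate 3 of aNMP-2a+2b+PBS_D14 was the highest of its group for 29 genes, with Myl7 at 930 FPKM. The part of monocytes or of atrial tissue in these ranks was not tested.

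The Ifi27 pair followed the block least. Deviations from group means, compared over the 18 libraries with the mean of the other members, had a Pearson coefficient of 0.48 for Ifi27 and 0.51 for Ifi27l2a, against a median of 0.92 over the 37 genes and a highest value of 0.99 for Rtp4. Coefficients reached 0.9 for 24 genes of the list and for 0.237% of 13079 other genes. These are descriptions over libraries that share groups, and members were compared with each other. The 10 other genes most like the list by this measure were Rnf213 (0.98), Ifi213, Znfx1, Phf11b, Trim12a, Trim34a, Phf11d, Stat2, Sppl2a and Slfn5 (0.94).

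Neighbouring genes account for part of the list. The 4 IFIT genes lie in a row on chromosome 19, Ifit2, Ifit3, Ifit3b and Ifit1 between bases 34550550 and 34650009 of GRCm38.p6. On chromosome 5, Oas2, Oas3, Oas1g and Oas1a lie between 120730333 and 120907544, with Oasl2 and Oasl1 between 114896926 and 114937911. Parp14, Dtx3l and Parp9 are neighbours on chromosome 16 (35831892 to 35972621), Sp110 and Sp100 on chromosome 1 (85570735 to 85709998), and Rsad2 and Cmpk2 on chromosome 12, 12.7 kb apart. Neighbours did not always have like values, since Oas2 had a day 15 value of 0.17 and Oas3 one of 1.17.

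The pathway that drives these genes was read from a list of its other parts. Of 11 interferon genes listed, Ifng, the gene of interferon gamma, had a row. It was at 0.21, 0.37 and 0.81 FPKM in PBS_D3 and at 0.35, 1.49 and 0.48 FPKM in aNMP-2a_D3. On day 8 it was at 0.48, 0.07 and 0.22 FPKM with PBS and at 1.25, 0.39 and 1.66 FPKM with aNMP-2b. On day 15 it was at 0.3, 0.15 and 0.0 FPKM with PBS and at 0.63, 1.24 and 3.74 FPKM with aNMP-2c. In each group last given nanomedicine, the library with the most Ifng was also the highest for most genes of the list. In PBS_D3 and aNMP-2a+2b+PBS_D14 this was not so. The part of Ifng in these ranks was not tested. Ifng was too low to be tested within a comparison. Type I interferon genes were not analysed here.

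Receptor genes were nearly level. All 6 were tested, none passed in any treatment comparison, and their median log2 fold changes were 0.11, 0.06 and 0.11 for aNMP-2a, aNMP-2b and aNMP-2c. Il10rb, a shared receptor chain and the most abundant of them, was at 94.3 and 99.9 FPKM in the day 8 groups. Ifnar2 (0.33) and Ifngr1 (0.27) had the largest day 8 values, and Ifnar1 had a value of 0.04.

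Signal carriers and transcription factors differed among themselves. None of 12 passed in the treatment comparisons, and the medians were 0.13, 0.92 and 0.70. Irf7, the factor that amplifies interferon production, was at 53.3, 37.6 and 48.2 FPKM in the day 8 PBS group and at 177, 239 and 417 FPKM with aNMP-2b (2.49, adjusted p = 0.119 by limma). The groups did not overlap. Stat2 went from 13.9 to 49.5 FPKM (1.67) and Irf9 from 23.1 to 47.9 FPKM (1.03, adjusted p = 0.162 by limma). By contrast, the kinase genes Jak1 (0.02) and Tyk2 (0.24) and the factor Irf3 (0.07), which is switched on at the protein level, were close to 0. On day 15 the Irf7 groups were again apart (1.81), and on day 4 its value was −0.07.

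Sensing and adaptor genes (13 symbols with older names included, for 11 genes that all had a row and were tested) had medians of 0.12, 0.64 and 0.47. None passed. Unc93b1, which brings Toll-like receptors to endosomes, was the most abundant and went from 49.7 to 79.6 FPKM on day 8 (0.75). The receptor gene Tlr9 (1.06) had the largest day 8 value, and both overlapped between groups. Cgas, the DNA sensor, had group means from 1.01 to 1.60 FPKM, with log2 fold changes of −0.08, 0.14 and 0.04. The 8 brakes had medians of 0.11, 0.76 and 0.58 with none called. Samhd1, which depletes nucleotides and was the most abundant of them, went from 25.4 to 87.6 FPKM on day 8 (1.51, groups apart), and Socs1, which blocks the kinases, had values of 8.98, 5.89 and 3.86 FPKM against 8.80, 6.63 and 60.1 FPKM (1.31), so that replicate 3 alone was high.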

How the data were processed

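RNA of heart tissue was sequenced from 18 libraries, 3 in each of 6 groups assigned from the labels. The deposited values are FPKM per gene and library, made by the authors; the unit was read from the values, since the headers do not name it. Per the submitters' processing notes, RSEM 1.2.8, Bowtie2 2.2.5 and HISAT2 2.1.0 were used with build GRCm38.p6, in roles not given. Counts were not used here, so depth and counting error are unknown, and strand use is not given in the sources used here.

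Each comparison was fitted with limma 3.58.1 in R 4.3.3 on log2(FPKM + 0.5), for genes at 1 FPKM or more in at least 3 of its 6 libraries (of 18 for differences between days), with an intensity trend and robust variances. Tests are two-sided, p-values were adjusted by Benjamini-Hochberg over all genes tested, and a gene is called at an adjusted p under 0.05. With 3 libraries a side, an exact permutation test has a smallest p of 0.1. Nothing states that libraries of a group are separate animals, so the p-values rest on a spread between libraries that may be technical. The fits were also run on simulated data with independent noise for each gene, which cannot speak to genes that move together.

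The genes and lists were chosen with earlier results of these data known. Genes named in full are the most abundant of each role class, the 3 with the largest values per treatment comparison (on day 3 also the 3 most negative) and those called; other values are given to describe a class. Pathway genes named are the most abundant of each list and those with the largest day 7 values; 1 gene that this rule names is not reported here. Those singled out beyond these rules (among them Irf9, Irf3, Jak1, Tyk2, Ifnar1, Cgas and Ifi27 on other days) were chosen after their values were seen. Alternatives were another pseudocount, no filter, a replicate block, 1 fit of 18 libraries, and leaving out single or Myl7-rich libraries. Promoter matches were counted with Python 3.11.15 in RefSeq windows, and copies by shared 50-base runs of transcripts.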

Additional observations from a re-analysis of the deposited data

How the results depend on the processing

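No direction of a list median turned under any alternative except the day 14 against day 7 difference, given at the end, and the cause of each change was not tested. Of the 37 genes, 0 were called on day 3, against 1 with the replicate block (Ifi27, lower; 0.488% of all genes called down) and 3 without libraries rich in Myl7. On day 7, 0 were called, against 4 in 1 fit of all 18 libraries (Usp18, Lgals3bp, Uba7 and Xaf1; 0.126% of all genes called up) and 0 to 3 on leaving out 1 library. On day 14 and from day 8 to day 15, 0 were called in every setting run. From day 4 to day 8, 2 were called, against 1 with a pseudocount of 0.1, 0 with no filter, 0 with the replicate block, 0 in 1 fit of all 18 libraries, 0 without Myl7-rich libraries, and 0 to 8 on leaving out 1 library. Without Myl7-rich libraries the list medians were 0.73 (day 3, from 0.33), 2.13 (day 7, from 1.49), −1.62 (day 4 to day 8, from −1.24) and −1.09 (day 14 minus day 7, from −0.35). These rest on arms of 1 library, aNMP-2a_D3 replicate 2 and aNMP-2a+2b_D7 replicate 3, the highest of their groups for 37 and 36 genes, and for the last also aNMP-2a+2b+PBS_D14 replicate 1, so they do not separate atrial tissue from those libraries. From day 8 to day 15 this was not run, since it leaves 1 library against 1. Leaving out 1 library gave medians of 0.05 to 0.51 on day 3, 1.04 to 1.74 on day 7, 0.84 to 1.25 on day 14, −1.51 to −1.03 from day 4 to day 8, −1.59 to −0.84 from day 8 to day 15, 0.78 to 1.51 for day 7 minus day 3, −0.64 to 0.02 for day 14 minus day 7 and 0.52 to 1.02 for day 14 minus day 3. Whether replicate numbers pair the samples is not known, and correlations of same-numbered deviations ran from −0.20 to 0.37. With 3 libraries against 3, a replicate block cannot change a log2 fold change, so the unchanged medians say nothing of pairing. The sign of a gene's value held in all alternatives run for 23 of 37 genes on day 3, 37 on day 7, 36 on day 14, 36 from day 4 to day 8, 37 from day 8 to day 15, 37 for day 7 minus day 3, 17 for day 14 minus day 7 and 28 for day 14 minus day 3. Unknown depth limits low genes such as Oas3.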
